A study of Mus musculus with 16 samples.

Results

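The transcripts of MHC class I and class II antigen presentation were measured in mouse striatum, as 34 genes chosen by symbol from the 48795 genes of the deposited read count table. They comprise 9 class I molecules (the light chain among them), 11 genes of class I peptide supply, 9 class II genes, 2 transcriptional regulators and 3 costimulatory genes. All 34 were found once in the table, and all 34 passed the filter on low counts, which left 20825 genes for testing. The libraries came from striatum of 16 mice, 4 in each of 4 groups, and were made from total RNA after depletion of ribosomal RNA. WT_tdT and WT_hM4D were wild types, and KO_tdT and KO_hM4D were knockouts of Sapap3 (current symbol Dlgap3), a postsynaptic scaffold gene whose loss is used as a mouse model of compulsive grooming. An adeno-associated virus injected into the striatum expressed tdTomato, a fluorescent protein, or hM4Di, an engineered inhibitory receptor, and the labels describe both as astrocytic, with the promoter not given in the sources used here. All 4 groups received DCZ (deschloroclozapine), the agonist of hM4Di, so a group with the receptor but no agonist was not part of the comparison, and receptor, activation and vector payload cannot be told apart. The labels give no strain, age or sex.

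Library totals ran from 129149745 to 180655067 counts, markers of striatal projection neurons (12 genes) summed to 3840 to 6880 CPM per library, and Dlgap3 stood at 294 to 437 CPM (reads of a gene relative to the TMM-scaled library total) in the wild types and at 153 to 167 CPM in the knockouts. In 3 of the 4 WT_hM4D libraries (2, 3 and 4) a label field named the knockout, while title and genotype field gave the wild type, and Dlgap3 lay in the wild-type range in each of them. In 4 libraries (WT_tdT 4, WT_hM4D 2, WT_hM4D 4 and KO_tdT 3) Xist and Y-linked transcripts both reached at least 5% of their highest library, so 1 mouse per library is uncertain there, and results that move without those 4 libraries are also given without them. A further 3 libraries lay just under this limit, at 4.17% to 4.89%. The 4 KO_hM4D libraries held Y-linked transcripts at no more than 0.0643% of the highest library, so that in comparisons with this group genotype or virus and sex cannot be told apart.

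Class I molecules sit on the surface of most nucleated cells and show peptides of cytosolic origin to CD8 T cells. The peptides are cut by the proteasome, in which interferon-induced subunits can replace the constitutive ones, pumped into the endoplasmic reticulum by the transporter TAP and loaded with help from tapasin. Class II molecules are made by professional antigen-presenting cells, carry peptides from endosomes to CD4 T cells and are guided there by the invariant chain Cd74. In healthy brain, class II transcripts come largely from border and perivascular macrophages and a few dendritic cells, and microglia add to them when activated. Nlrc5 is the transactivator of class I genes and Ciita that of class II genes, and both act through promoter elements called the X and Y boxes.

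The promoters of 4 members are shown because class I and class II genes share these elements and their transcripts are compared below. RefSeq promoter windows (GRCm38.p6) were found for 26 of the 34 genes, and the 250 bases upstream of the start were searched on both strands. The 150 bases upstream of the start are printed, 5′ to 3′ in the direction of the gene. Capitals mark the Y box core CCAAT or its reverse complement ATTGG, the X2 box core TGACG or its reverse complement CGTCA, and the interferon-stimulated response element core GAAANNGAAA. In H2-Aa, matches to TGACG and CGTCA overlap. H2-Aa lies at chr17:34287824-34287973 on the minus strand, H2-Eb1 at chr17:34305717-34305866, H2-D1 at chr17:35262944-35263093 and B2m at chr2:122147537-122147686, the last 3 on the plus strand. These starts are those of RefSeq, while the gene coordinates given below are those of GENCODE. For H2-D1 the GENCODE gene begins before the printed stretch, which therefore lies within that gene.
H2-Aa: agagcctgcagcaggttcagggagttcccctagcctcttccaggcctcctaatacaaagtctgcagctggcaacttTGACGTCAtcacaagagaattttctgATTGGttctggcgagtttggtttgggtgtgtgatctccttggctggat
H2-Eb1: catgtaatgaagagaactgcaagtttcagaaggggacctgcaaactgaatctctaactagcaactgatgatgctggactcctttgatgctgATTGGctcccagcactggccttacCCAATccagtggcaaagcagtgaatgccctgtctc
H2-D1: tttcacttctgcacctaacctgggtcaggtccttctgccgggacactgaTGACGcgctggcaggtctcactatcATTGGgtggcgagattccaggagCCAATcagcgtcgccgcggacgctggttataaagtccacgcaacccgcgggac
B2m: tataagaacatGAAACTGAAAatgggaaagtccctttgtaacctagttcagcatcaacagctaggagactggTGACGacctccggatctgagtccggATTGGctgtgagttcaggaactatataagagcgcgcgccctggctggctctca

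A CCAAT match was present in 20 of the 26 member windows and in 33.8% of all 32851 promoter windows, and a TGACG match in 12 of 26 against 17.8%. The spaced pair seen in the printed H2-Aa, H2-D1 and B2m promoters, TGACG followed 24 to 27 bases on by ATTGG, was found in 6 members, H2-K1, H2-D1, H2-Q7, H2-M3, B2m and H2-Aa, and in 40 windows (0.122%) overall. This spacing was chosen after the sequences had been seen. The response element core was found in 3 members against 2.98% of windows, and the interferon gamma-activated core TTCNNNGAA in 3 against 7.02%. A match is a description of letters, not of a bound site.

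Members differed widely in level. Per kilobase of exon, and averaged over the 16 libraries, Canx, a general chaperone of glycoprotein folding, stood at 122 CPM per kb and B2m, the class I light chain, at 85.4 CPM per kb. The classical class I heavy chains followed with 14.4 CPM per kb for H2-D1 and 6.58 CPM per kb for H2-K1. Class II lay lower, with 2.11 CPM per kb for Cd74 and 0.332 CPM per kb for H2-Aa, except that H2-DMa, a subunit of the peptide editor, reached 3.47 CPM per kb. Nlrc5 stood at 0.0674 CPM per kb, with Cd80 at 0.0572 CPM per kb and Cd40 at 0.0411 CPM per kb below it, and the lowest member was Ciita at 0.00743 CPM per kb, whose 16 libraries held 2 to 41 counts each.

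**Figure D1:**
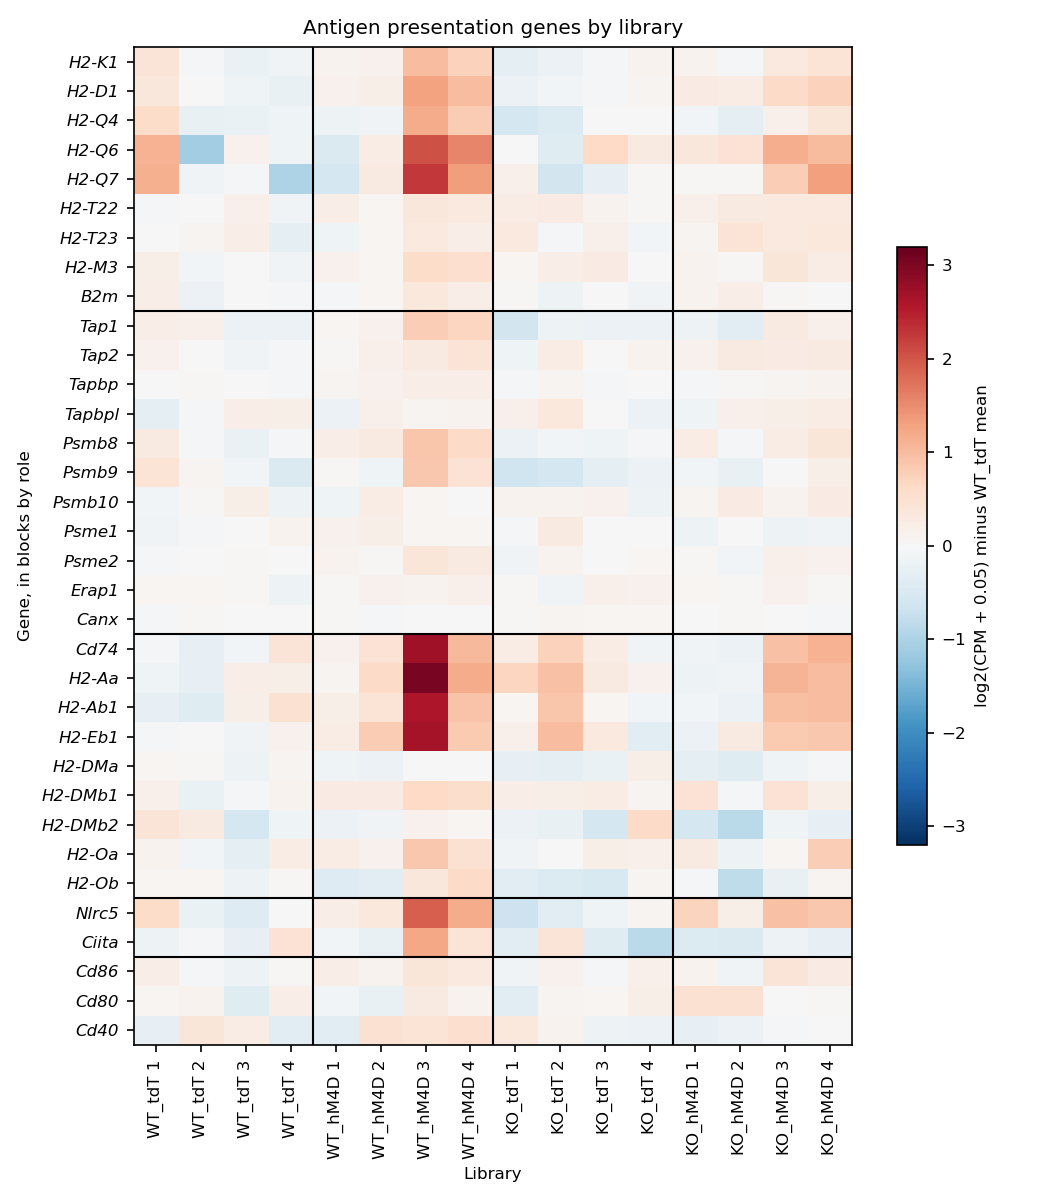
Each row is 1 of the 34 genes in blocks by role (class I molecules, peptide supply, class II, regulators, costimulation) and each column 1 library. Colour is log2(CPM + 0.05) minus the WT_tdT mean, and the darkest cells lie in WT_hM4D 3, which was the highest library for 20 of the 34 genes.

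With hM4Di, most members had positive changes in both genotypes, and few libraries gave the high values. Log2 changes of single genes are given ± SE, with edgeR's p adjusted over all genes tested. In WT_hM4D against WT_tdT 31 of 34 log2 changes were above 0, against 50.3% of all genes tested, with a median of 0.35 beside 0.00 for all genes. In KO_hM4D against KO_tdT 28 of 34 were above 0, against 50.5%, with a median of 0.15 beside 0.00. edgeR's quasi-likelihood test called 0 of 34 members in wild types (0.0864% of all genes were called, 18 genes) and 0 of 34 in knockouts (0.0048%, 1 gene). At an unadjusted p under 0.05, 17 members were higher and 0 lower in wild types, where 6.57% of all genes were higher and 4.48% lower. In knockouts 3 were higher and 1 lower, where 5.52% of all genes were higher and 5.59% lower. DESeq2 called 1 member higher in wild types, Psmb8 (adjusted p = 0.0441), with 0.778% of all genes called higher, and 0 in knockouts (0.216% of all genes called higher and 0.379% lower). Averaged over both genotypes, edgeR called 0 of 34 (0.0288% of all genes) with 30 of 34 changes above 0 (51.2% of all genes). At an unadjusted p under 0.05, 21 were higher and 0 lower in it (8% of all genes higher and 7.27% lower). DESeq2 called 4 members higher in this average, H2-K1, H2-D1, Psmb8 and Nlrc5, with 1.64% of all genes called higher.

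Of the fits without 1 library, the lowest count in wild types came without WT_hM4D 3. Without that library 8 members, in place of 17, were higher at an unadjusted p under 0.05. The share of all genes fell as well, from 6.57% to 3.91%, so that the members stood above it in both fits. Without WT_hM4D 4 the count was 12, and without WT_tdT 1 it was 22. In knockouts the count was 1 without KO_hM4D 3 and 1 without KO_hM4D 4. Averaged over the genotypes the 21 became 9 without WT_hM4D 3, 12 without KO_hM4D 4, and 13 without the 4 libraries that held transcripts of both sexes. Where such counts stand without a share of all genes, here and below, they do not measure an excess over all genes, because that share can move too. These are bulk samples, so more cells of a type and more RNA per cell cannot be told apart.

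**Figure D2:**
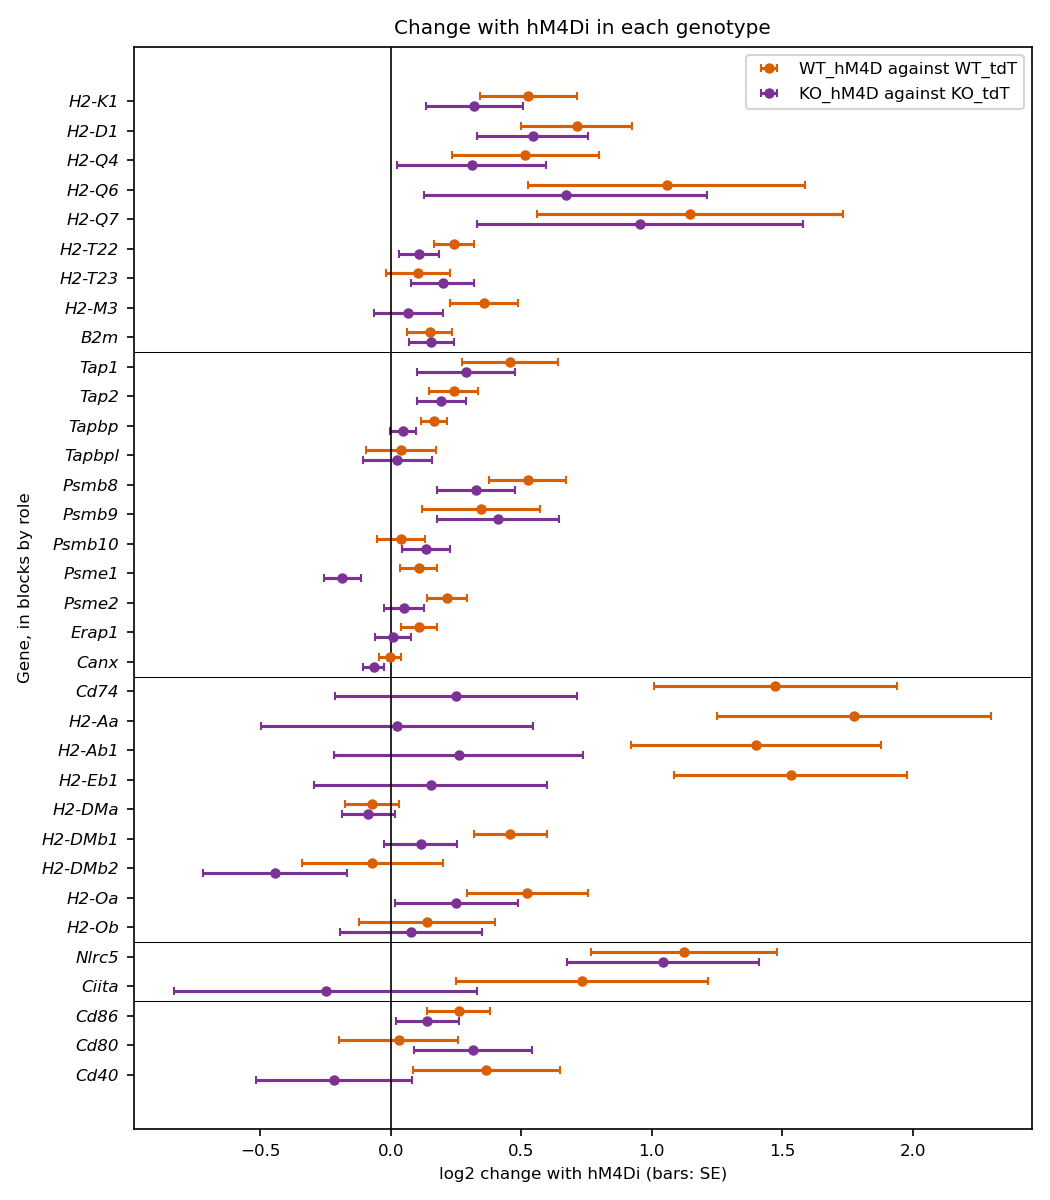
Points are log2 changes with hM4Di for each gene in wild types (orange) and knockouts (purple), with bars of 1 SE. The 4 genes Cd74, H2-Aa, H2-Ab1 and H2-Eb1 stand farthest right in wild types, between 1.40 and 1.77, and lie between 0.02 and 0.26 in knockouts.

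Among the 9 class I molecules, all 9 changes with hM4Di were above 0 in each genotype, with medians of 0.51 in wild types and 0.31 in knockouts, and none was called by edgeR in either. H2-D1, a classical class I heavy chain (ENSMUSG00000073411, GRCm38 chr17:35262730-35267499), stood at 37.98, 29.3, 26.98 and 25.1 CPM in WT_tdT 1 to 4, 32.2, 33.8, 71.4 and 58.2 CPM in WT_hM4D 1 to 4, 25.8, 27.8, 27.99 and 31.2 CPM in KO_tdT 1 to 4 and 35.3, 34.9, 45.3 and 48.96 CPM in KO_hM4D 1 to 4. WT_hM4D 3 and WT_hM4D 4 were the highest libraries and WT_hM4D 1 and 2 lay within the WT_tdT range, while in knockouts the 4 hM4Di libraries exceeded every tdTomato library. The log2 change was 0.71 ± 0.21 (adjusted p = 0.227) in wild types, 0.54 ± 0.21 (adjusted p = 0.395) in knockouts and 0.63 ± 0.15 (adjusted p = 0.0796) averaged over both. Without WT_hM4D 3 the change in wild types was 0.47, and without WT_hM4D 1 the averaged change passed the test at 0.71. H2-K1, the other classical heavy chain (ENSMUSG00000061232, chr17:33996017-34000347), stood at 22.5, 16.1, 14.5 and 15.5 CPM in WT_tdT 1 to 4, 18.4, 18.5, 33.6 and 28.2 CPM in WT_hM4D 1 to 4, 13.7, 14.8, 16.2 and 18.4 CPM in KO_tdT 1 to 4 and 18.1, 16.6, 21.2 and 22.9 CPM in KO_hM4D 1 to 4. The same pair of WT_hM4D libraries was high, WT_tdT 1 lay above WT_hM4D 1 and 2, and the groups overlapped in both genotypes. Its log2 change was 0.53 ± 0.19 (adjusted p = 0.312) in wild types, 0.34 without WT_hM4D 3, and 0.32 ± 0.19 (adjusted p = 0.525) in knockouts.

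B2m, the light chain that every class I heavy chain needs (chr2:122147686-122153083), differed less. It stood at 82.3, 62.5, 71.9 and 68.2 CPM in WT_tdT 1 to 4, 69.5, 74.4, 90.03 and 81.7 CPM in WT_hM4D 1 to 4, 72.7, 63.5, 70.5 and 65.4 CPM in KO_tdT 1 to 4 and 76.7, 81.8, 73.1 and 71.6 CPM in KO_hM4D 1 to 4. Its log2 change was 0.15 ± 0.09 (adjusted p = 0.558) in wild types and 0.16 ± 0.09 (adjusted p = 0.512) in knockouts, with overlapping groups in both, and in wild types it was 0.09 without WT_tdT 2 and 0.08 without WT_hM4D 3. H2-M3, which presents formylated peptides, stood at 1.99, 1.64, 1.76 and 1.595 CPM in WT_tdT 1 to 4, 1.91, 1.82, 2.65 and 2.55 CPM in WT_hM4D 1 to 4, 1.81, 2.02, 2.097 and 1.74 CPM in KO_tdT 1 to 4 and 1.88, 1.796, 2.28 and 2.07 CPM in KO_hM4D 1 to 4. WT_hM4D 3 and 4 were again the highest libraries, and the change in wild types was 0.36 ± 0.13 (adjusted p = 0.333). H2-T22, a nonclassical molecule recognised by some gamma delta T cells, stood at 12.7, 12.8, 14.5 and 12.03 CPM in WT_tdT 1 to 4, 15.02, 13.6, 16.8 and 16.05 CPM in WT_hM4D 1 to 4, 15.4, 15.6, 13.998 and 13.3 CPM in KO_tdT 1 to 4 and 14.6, 15.9, 16.2 and 16.1 CPM in KO_hM4D 1 to 4. WT_hM4D 3 was the highest and WT_tdT 4 the lowest library, and the groups overlapped in both genotypes. It was the member with the smallest p in KO_tdT against WT_tdT, where its log2 change was 0.16 ± 0.08 (adjusted p = 0.5605), and its change with hM4Di in wild types was 0.24 ± 0.08 (adjusted p = 0.255).

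The Qa genes H2-Q4, H2-Q6 and H2-Q7 had changes of 0.51, 1.06 and 1.15 in wild types, with SEs of 0.28, 0.53 and 0.59. Their highest library was WT_hM4D 3 in each case, and H2-Q6 ran over 12.6-fold and H2-Q7 over 15.3-fold between the highest and the lowest library. H2-T23, which encodes Qa-1, differed least of the class I molecules in wild types, by 0.11 ± 0.12 (adjusted p = 0.805). Counts of several of these genes are uncertain because of shared sequence: 34.5% of 50-base windows of H2-T22, 32% of H2-Q6, 26.4% of H2-Q7, 21.8% of H2-Q4, 13.6% of H2-T23, 12.8% of H2-D1 and 9.63% of H2-K1 occur in another gene. For B2m this share was 0, and B2m overlaps Patl2 on the opposite strand.

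**Figure D3:**
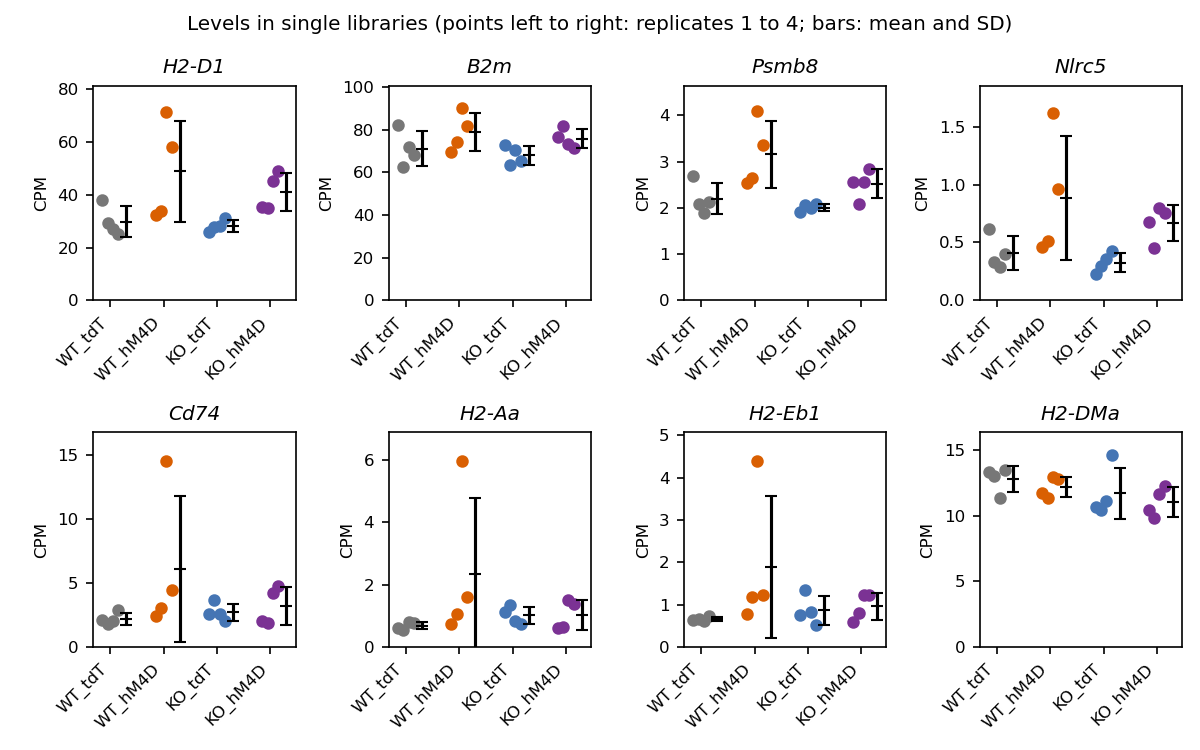
CPM of 8 genes in single libraries, with replicates 1 to 4 of a group from left to right and black bars for mean and SD (the lower SD bar of H2-Aa in WT_hM4D passes below the axis at 0). In H2-D1, Psmb8 and Nlrc5, WT_hM4D 3 and 4 stand above the rest of their group. In Cd74, H2-Aa and H2-Eb1, WT_hM4D 3 stands far above the rest of its group and raises the group mean.

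In class I peptide supply 10 of 11 changes with hM4Di were above 0 in wild types and 9 of 11 in knockouts, with medians of 0.16 and 0.05, and edgeR called none. Psmb8, the interferon-induced proteasome subunit that takes the place of Psmb5 (chr17:34197721-34201454), stood at 2.69, 2.09, 1.89 and 2.13 CPM in WT_tdT 1 to 4, 2.53, 2.65, 4.098 and 3.36 CPM in WT_hM4D 1 to 4, 1.902, 2.06, 1.99 and 2.07 CPM in KO_tdT 1 to 4 and 2.56, 2.09, 2.56 and 2.85 CPM in KO_hM4D 1 to 4. The highest libraries were WT_hM4D 3 and 4, and in knockouts every hM4Di library exceeded every tdTomato library, KO_hM4D 2 by a narrow margin. The log2 change was 0.52 ± 0.15 (adjusted p = 0.202) in wild types, 0.33 ± 0.15 (adjusted p = 0.435) in knockouts and 0.43 ± 0.10 (adjusted p = 0.0829) averaged over both. DESeq2 gave an adjusted p of 0.0441 in wild types and of 0.00734 for the average. Set against its constitutive counterpart, there were 4.89 ± 0.919 counts of Psmb8 per 100 of Psmb5 in WT_tdT, 6.33 ± 0.804 in WT_hM4D, 4.22 ± 0.163 in KO_tdT and 5.03 ± 0.641 in KO_hM4D (SD, n = 4). Psmb9, another inducible subunit, had a log2 change of 0.35 ± 0.23 (adjusted p = 0.603) and Psmb10, the remaining inducible subunit, one of 0.04 ± 0.09 (adjusted p = 0.912) in wild types. Averaged over all libraries, the level was 11.4 CPM per kb for Psmb10, 0.730 CPM per kb for Psmb8 and 0.215 CPM per kb for Psmb9.

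The transporter subunit Tap1 stood at 2.39, 2.301, 1.81 and 1.799 CPM in WT_tdT 1 to 4, 2.15, 2.28, 3.62 and 3.34 CPM in WT_hM4D 1 to 4, 1.35, 1.83, 1.799 and 1.796 CPM in KO_tdT 1 to 4 and 1.84, 1.61, 2.51 and 2.32 CPM in KO_hM4D 1 to 4. It was highest in WT_hM4D 3 and 4, its change in wild types was 0.46 ± 0.18 (adjusted p = 0.377), and it overlaps Psmb9 on the opposite strand. Its partner Tap2 stood at 5.79, 5.27, 4.83 and 5.13 CPM in WT_tdT 1 to 4, 5.37, 5.91, 6.397 and 7.15 CPM in WT_hM4D 1 to 4, 4.77, 6.15, 5.18 and 5.63 CPM in KO_tdT 1 to 4 and 5.82, 6.37, 6.25 and 6.42 CPM in KO_hM4D 1 to 4. WT_hM4D 4 was the highest library, and the change was 0.24 ± 0.09 (adjusted p = 0.364) in wild types, 0.14 without the 4 libraries that held transcripts of both sexes, and 0.19 ± 0.09 (adjusted p = 0.463) in knockouts. Tapbp, tapasin, stood at 20.2, 21.04, 20.7 and 20.04 CPM in WT_tdT 1 to 4, 21.7, 22.7, 23.7 and 23.8 CPM in WT_hM4D 1 to 4, 19.99, 21.6, 19.6 and 20.5 CPM in KO_tdT 1 to 4 and 19.9, 20.9, 21.6 and 22.1 CPM in KO_hM4D 1 to 4. All 4 WT_hM4D libraries lay above all 4 WT_tdT libraries, as for 4 of 34 members against 3.64% of all genes (0 of 34 lay below throughout, against 3.19%), and the change of 0.16 ± 0.05 (adjusted p = 0.227) was small. Its spread between libraries was also small, with a highest library 1.21 times the lowest.

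Psme1 and Psme2 encode the subunits of an interferon-induced proteasome activator. Psme2 was higher in every WT_hM4D library than in any WT_tdT library, by 0.22 ± 0.08 (adjusted p = 0.325), and 28.3% of its 50-base windows occur in Psme2b. Psme1 had the smallest interaction p of the members, with a change of 0.11 ± 0.07 (adjusted p = 0.603) in wild types and -0.19 ± 0.07 (adjusted p = 0.388) in knockouts, with an interaction of -0.29 ± 0.10 (adjusted p = 0.658). Tapbpl (a tapasin relative), Erap1 (the aminopeptidase that trims peptides in the endoplasmic reticulum) and Canx had changes of 0.04, 0.11 and 0.00 in wild types, and Canx varied by a factor of 1.11 over all libraries.

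Within class II, the invariant chain and the classical chains of class II, Cd74, H2-Aa, H2-Ab1 and H2-Eb1, had a median change of 1.503 in wild types and 0.20 in knockouts, and the 5 genes of peptide exchange a median of 0.14 and 0.08. Cd74 stood at 2.08, 1.801, 2.04 and 2.896 CPM in WT_tdT 1 to 4, 2.38, 3.02, 14.5 and 4.47 CPM in WT_hM4D 1 to 4, 2.54, 3.65, 2.55 and 1.996 CPM in KO_tdT 1 to 4 and 1.99, 1.89, 4.17 and 4.72 CPM in KO_hM4D 1 to 4. H2-Aa, the alpha chain of I-A (chr17:34282744-34287823), stood at 0.607, 0.552, 0.798 and 0.779 CPM in WT_tdT 1 to 4, 0.722, 1.05, 5.96 and 1.59 CPM in WT_hM4D 1 to 4, 1.13, 1.34, 0.8304 and 0.745 CPM in KO_tdT 1 to 4 and 0.595, 0.625, 1.51 and 1.38 CPM in KO_hM4D 1 to 4. WT_hM4D 3 was far above every other library in both genes, KO_tdT 2, KO_hM4D 3, KO_hM4D 4 and WT_hM4D 4 came next, and KO_hM4D 1 and 2 lay among the WT_tdT libraries. H2-Ab1, the beta chain of I-A (chr17:34257689-34269419), stood at 0.61996, 0.559, 0.8599 and 1.07 CPM in WT_tdT 1 to 4, 0.863, 1.03, 4.78 and 1.45 CPM in WT_hM4D 1 to 4, 0.783, 1.43, 0.789 and 0.706 CPM in KO_tdT 1 to 4 and 0.709, 0.654, 1.52 and 1.55 CPM in KO_hM4D 1 to 4. H2-Eb1, the beta chain of I-E (chr17:34305867-34316674), stood at 0.639, 0.657, 0.609 and 0.733 CPM in WT_tdT 1 to 4, 0.778, 1.18, 4.398 and 1.22 CPM in WT_hM4D 1 to 4, 0.746, 1.35, 0.8304 and 0.514 CPM in KO_tdT 1 to 4 and 0.576, 0.812, 1.21 and 1.23 CPM in KO_hM4D 1 to 4. Of these 4 genes, H2-Eb1 was the one in which all WT_hM4D libraries lay above all WT_tdT libraries, WT_hM4D 1 by a narrow margin.

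The log2 change in wild types was 1.47 ± 0.47 (adjusted p = 0.256) for Cd74. It was 1.77 ± 0.53 (adjusted p = 0.224) for H2-Aa. For H2-Ab1 it was 1.40 ± 0.48 (adjusted p = 0.295), and for H2-Eb1 1.53 ± 0.45 (adjusted p = 0.224). None of the 4 passed the test. Without WT_hM4D 3 these changes were 0.58, 0.72, 0.53 and 0.69, with edgeR adjusted p between 0.717 and 0.837. Without the 4 libraries that held transcripts of both sexes they were 2.09, 2.34, 2.04 and 2.02, a fit in which WT_hM4D keeps 2 libraries, WT_hM4D 1 and 3. In knockouts the changes were 0.25, 0.02, 0.26 and 0.15, with SEs of 0.46, 0.52, 0.48 and 0.45.

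Of peptide exchange, H2-DMb1, the beta chain of the peptide editor, stood at 0.993, 0.749, 0.843 and 0.945 CPM in WT_tdT 1 to 4, 1.07, 1.06, 1.404 and 1.31 CPM in WT_hM4D 1 to 4, 1.03, 1.01, 1.04 and 0.929 CPM in KO_tdT 1 to 4 and 1.23, 0.862, 1.23 and 1.01 CPM in KO_hM4D 1 to 4. All WT_hM4D libraries lay above all WT_tdT libraries, with a change of 0.46 ± 0.14 (adjusted p = 0.2399), and 22.7% of its 50-base windows occur in H2-DMb2. H2-DMa, the alpha chain, had a log2 change of -0.07 ± 0.10 (adjusted p = 0.846) in wild types and -0.09 ± 0.10 (adjusted p = 0.768) in knockouts, and its highest library, KO_tdT 4, was 1.49 times the lowest. H2-DMa overlaps Brd2 on the opposite strand. H2-Oa and H2-Ob encode the modulator of the editor: H2-Oa had a log2 change of 0.52 ± 0.23 (adjusted p = 0.419) in wild types and H2-Ob one of 0.14 ± 0.26 (adjusted p = 0.885). H2-DMb2 was at -0.07 ± 0.27 (adjusted p = 0.951) in wild types and -0.44 ± 0.28 (adjusted p = 0.552) in knockouts.

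The transactivators differed from each other. Nlrc5, the class I transactivator (ENSMUSG00000074151, chr8:94434356-94527272), stood at 0.61996, 0.335, 0.285 and 0.401 CPM in WT_tdT 1 to 4, 0.463, 0.509, 1.61 and 0.961 CPM in WT_hM4D 1 to 4, 0.231, 0.295, 0.353 and 0.422 CPM in KO_tdT 1 to 4 and 0.677, 0.452, 0.795 and 0.752 CPM in KO_hM4D 1 to 4. In knockouts the lowest hM4Di library exceeded the highest tdTomato library, as for 3 of 34 members against 2.33% of all genes (0 of 34 lay below throughout, against 2.55%), and in wild types WT_tdT 1 lay above WT_hM4D 1 and 2. The change was 1.12 ± 0.36 (adjusted p = 0.256) in wild types, 1.04 ± 0.37 (adjusted p = 0.3705) in knockouts and 1.08 ± 0.26 (adjusted p = 0.0762) averaged over both, with a DESeq2 adjusted p of 0.00282 for the average. Without WT_hM4D 3 the change in wild types was 0.66. Ciita, the class II transactivator, stood at 0.0569, 0.0657, 0.0503 and 0.113 CPM in WT_tdT 1 to 4, 0.0631, 0.0509, 0.232 and 0.111 CPM in WT_hM4D 1 to 4, 0.0448, 0.1097, 0.0415 and 0.0154 CPM in KO_tdT 1 to 4 and 0.03797, 0.0359, 0.05597 and 0.0487 CPM in KO_hM4D 1 to 4. The WT_hM4D 3 library held 41 counts and WT_hM4D 4 held 18, and the remaining libraries 2 to 16. Its change was 0.73 ± 0.48 (adjusted p = 0.605) in wild types, -0.25 ± 0.58 (adjusted p = 0.893) in knockouts and 0.11 in wild types without WT_hM4D 3, and counting error weighs heavily at this depth.

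Of the costimulatory genes, Cd86 and Cd80 encode ligands of CD28, a receptor of T cells, and Cd40 a receptor through which helper T cells activate antigen-presenting cells. Cd86 stood at 2.43, 2.005, 1.85 and 2.15 CPM in WT_tdT 1 to 4, 2.43, 2.29, 2.75 and 2.64 CPM in WT_hM4D 1 to 4, 1.94, 2.33, 2.03 and 2.36 CPM in KO_tdT 1 to 4 and 2.28, 1.93, 2.799 and 2.53 CPM in KO_hM4D 1 to 4. WT_hM4D 3, WT_hM4D 4 and KO_hM4D 3 were its highest libraries, and the change in wild types was 0.26 ± 0.12 (adjusted p = 0.437). Cd80 stood at 0.209, 0.217, 0.1396 and 0.234 CPM in WT_tdT 1 to 4, 0.182, 0.1599, 0.249 and 0.216 CPM in WT_hM4D 1 to 4, 0.142, 0.213, 0.208 and 0.2303 CPM in KO_tdT 1 to 4 and 0.297, 0.294, 0.196 and 0.202 CPM in KO_hM4D 1 to 4. Its highest libraries were KO_hM4D 1 and 2, and its change was 0.03 ± 0.23 (adjusted p = 0.975) in wild types and 0.32 ± 0.23 (adjusted p = 0.602) in knockouts. Cd40 stood at 0.101, 0.184, 0.162 and 0.0907 CPM in WT_tdT 1 to 4, 0.0912, 0.203, 0.192 and 0.2095 CPM in WT_hM4D 1 to 4, 0.179, 0.144, 0.111 and 0.107 CPM in KO_tdT 1 to 4 and 0.101, 0.108, 0.123 and 0.132 CPM in KO_hM4D 1 to 4. WT_hM4D 1 was low and WT_hM4D 2 to 4 were high, with a change of 0.37 ± 0.28 (adjusted p = 0.675) in wild types and -0.22 ± 0.30 (adjusted p = 0.803) in knockouts. In wild types Cd80 turned to a negative change without WT_tdT 3, WT_hM4D 3 or WT_hM4D 4, and Cd40 without the 4 libraries that held transcripts of both sexes.

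The libraries with high class I were mostly those with high class II. WT_hM4D 3 was the highest library for 8 of 9 class I molecules, 4 of 11 genes of peptide supply, 6 of 9 class II genes and both regulators, 20 of 34 in all (58.8%), against 6.82% of all genes tested. WT_hM4D 4 was highest for 5 (14.7% against 6.89%). Relative to the WT_tdT mean, the class I molecules had a median log2 level of -0.03, 0.07, 0.99 and 0.74 in WT_hM4D 1 to 4, and Cd74 with the 3 classical class II chains one of 0.16, 0.53, 2.68 and 0.97. In KO_hM4D 1 to 4 the class I medians were 0.11, 0.21, 0.32 and 0.38 and the class II medians -0.15, -0.15, 0.95 and 0.99. KO_tdT 2 had a class II median of 0.91 with a class I median of -0.16, and WT_tdT 1 a class I median of 0.36 with a class II median of -0.10. Class I medians were thus above the WT_tdT mean in all 4 KO_hM4D libraries, and class II medians in KO_hM4D 3 and 4 but not in KO_hM4D 1 and 2.

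**Figure D4:**
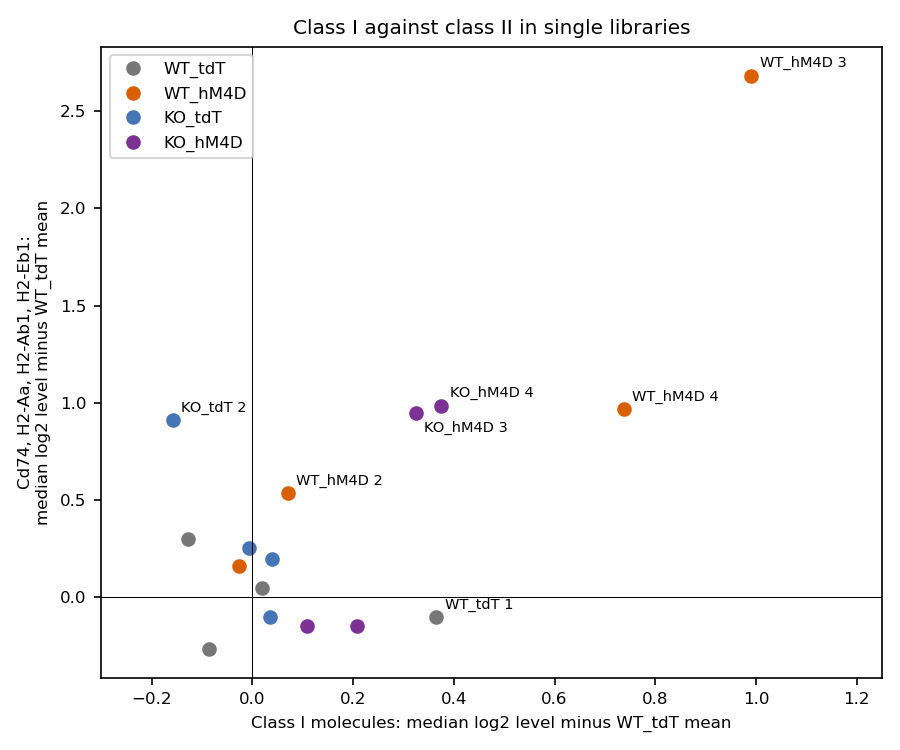
Each point is 1 library, with the median log2 level of the 9 class I molecules minus the WT_tdT mean on the x axis and that of Cd74, H2-Aa, H2-Ab1 and H2-Eb1 on the y axis. WT_hM4D 3 lies alone at 0.99 and 2.68, WT_hM4D 4 at 0.74 and 0.97, and KO_tdT 2 is high in class II (0.91) and not in class I (-0.16).

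Under the control virus, about as many members lay above as below the wild type. In KO_tdT against WT_tdT, 17 of 34 changes were above 0 (49.9% of all genes), the median was 0.01 beside 0.00 for all genes, and edgeR called 0 of 34 (0.0384% of all genes). At an unadjusted p under 0.05, 1 member was higher, H2-T22, and 0 were lower, against 3.92% and 4.77% of all genes. DESeq2 called 0 (0.0672% of all genes were called higher and 0.23% lower), and no member separated the groups without overlap (2.05% of all genes higher, 2.04% lower). Class I had a median of 0.01 over its 20 genes and class II one of 0.18 over its 9, which was 0.11 without WT_tdT 2 and 0.08 without KO_tdT 2. Cd74 and the 3 classical class II chains were all above 0, with a median of 0.34, and 0.09 without KO_tdT 2. The SEs behind these medians ran from 0.04 for Canx to 0.64 for H2-Q7, so that a change of the latter size was not detectable in H2-Q7 at this spread.

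Under hM4Di, knockouts lay below wild types in most members. In KO_hM4D against WT_hM4D 6 of 34 changes were above 0 (47.5% of all genes) and 28 below, the median was -0.24 beside -0.01 for all genes, and edgeR called 0 of 34 (0.0192% of all genes). At an unadjusted p under 0.05, 7 members were lower and 0 higher, against 6.66% of all genes lower and 6% higher, and DESeq2 called 0 (0.12% of all genes called higher and 0.279% lower). The 7 lower members were Tap1, Tapbp, Psmb8, Psme1, H2-Aa, H2-Eb1 and Ciita. Psme1 was the member in which all KO_hM4D libraries lay below all WT_hM4D libraries (3.37% of all genes, and 0 members against 2.73% in the other direction), by -0.22 ± 0.07 (adjusted p = 0.317). H2-Aa had a log2 change of -1.19 ± 0.51 (adjusted p = 0.359) and Tap1 one of -0.46 ± 0.18 (adjusted p = 0.341). The median was -0.15 for class I and -0.45 for class II, and without WT_hM4D 3 these were -0.03 and -0.11. The count of 7 lower members was 1 without WT_hM4D 3, 2 without KO_hM4D 1 or KO_hM4D 2, and 13 without WT_hM4D 1 or WT_hM4D 2. The share of all genes was not set beside these counts. Same-numbered libraries of these groups deviated together, with correlations between 0.177 and 0.453 across genes. With the replicate number as a block in a fit to these 8 libraries, edgeR called 2 of 33 members, both lower, against 6.12% of all genes, so that the share of members was near the background. They were Psme1 (-0.22 ± 0.04, adjusted p = 0.0335) and Tap1 (-0.44 ± 0.09, adjusted p = 0.0345), and Ciita did not pass that fit's filter. In that fit 13 members were lower at an unadjusted p under 0.05, against 11% of all genes, and 2 higher, H2-T23 and Psmb10, against 12.4%.

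The difference between the genotypes in the response to hM4Di was tested by the interaction. edgeR called 0 of 34 members and 0 of all genes (0%), and DESeq2 called 0 members (0.024% of all genes called higher and 0.0336% lower), and 5 of 34 interactions were above 0 (48.8% of all genes). At an unadjusted p under 0.05, 3 members had a smaller change in knockouts, Psme1, H2-Aa and H2-Eb1, against 3.49% of all genes, and 0 a larger one, against 3.28%. The interaction was -1.75 ± 0.74 (adjusted p = 0.706) for H2-Aa and -1.38 ± 0.63 (adjusted p = 0.728) for H2-Eb1. It was -0.17 ± 0.30 (adjusted p = 0.923) for H2-D1 and -0.08 ± 0.51 (adjusted p = 0.984) for Nlrc5. Without WT_hM4D 3, 13 of 34 interactions were above 0 and 1 was lower at an unadjusted p under 0.05, and the latter count was 1 to 6 without single libraries and 5 without the 4 libraries that held transcripts of both sexes. The 2 comparisons with WT_hM4D share its libraries, WT_hM4D 3 among them. Averaged over the viruses, knockouts against wild types gave 0 members called by edgeR (0.0768% of all genes) and 0 by DESeq2 (0.432% of all genes called higher and 0.639% lower), with 9 of 34 changes above 0 (48.5% of all genes). At an unadjusted p under 0.05, 4 members were lower (7.94% of all genes), Tap1, Psmb8, Psmb9 and Ciita, and 0 were higher (6.07%). The 4 were 2 without WT_hM4D 3, and 2 to 9 without single libraries.

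Other genes of the pathways were read from lists. Of all genes tested, edgeR called 0.0864% in wild types with hM4Di and 0.0048% in knockouts, and 50.3% and 50.5% of changes were above 0. Of 20 tested genes of class I outside the members (22 measured), edgeR called 0 in wild types with hM4Di, 13 changes were above 0 and the median was 0.07. The class I relatives H2-T24 (0.42 ± 0.13) and H2-K2 (0.53 ± 0.20) had the smallest p. Of 15 tested genes of class II processing and of the X and Y box complexes (17 measured), 0 were called, 8 were above 0 and the median was 0.02. Ctss, the protease that removes the invariant chain, had a log2 change of 0.37 ± 0.08 (adjusted p = 0.106), and Rfx5, a subunit of the X box complex, one of -0.24 ± 0.07 (adjusted p = 0.196). Of 14 genes of interferon signalling 0 were called and 11 were above 0, with a median of 0.14 and Irf1 at 0.27 ± 0.10. Of 6 tested costimulatory genes outside the members 0 were called and 3 were above 0, with Icam1 at 0.31 ± 0.11. In knockouts the medians of these 4 lists were -0.04, 0.03, 0.07 and 0.15, with 0 genes called in each. In wild types DESeq2 called 2 genes of interferon signalling higher, and 1 gene of the class II list higher and 1 lower. It called 0 of the class I and costimulatory lists (0.778% of all genes higher, 0.451% lower). Of 35 tested interferon-stimulated genes edgeR called 1 in wild types, Oasl2 (1.40 ± 0.22, adjusted p = 0.0213), 33 were above 0 and the median was 0.49. In knockouts it called 0, 29 were above 0 and the median was 0.11. DESeq2 called 9 of them higher in wild types (0.778% of all genes) and 0 in knockouts (0.216%). These genes had a median log2 level of 0.51 in WT_hM4D 3 and 0.74 in WT_hM4D 4, and of 36 measured 21 were highest in WT_hM4D 4 and 11 in WT_hM4D 3. Among the 11 was Cxcl9, a chemokine induced by interferon gamma, with 90 counts in WT_hM4D 3, 19 in WT_hM4D 4, 6 and 10 in KO_hM4D 3 and 4 and 0 to 5 in the remaining libraries. The interferon-induced GTPases Igtp, with 1115 counts in WT_hM4D 3 and 847 in WT_hM4D 4, and Irgm2, with 920 and 625, were also among them. The remaining libraries held 400 to 774 counts of Igtp and 288 to 543 of Irgm2. These counts are not scaled to library totals. KO_hM4D 2, with 750 counts of Igtp at 139.24 counts per CPM, lay above WT_hM4D 4, at 162.25 counts per CPM, once scaled. Cxcl9, Igtp and Irgm2 were chosen after their values were seen.

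Levels of markers of other cells were measured in the same libraries, to be read beside the shares over all genes given above. Microglia markers (20 genes) summed to between 682 and 740 CPM in WT_tdT, between 757 and 858 in WT_hM4D, between 652 and 812 in KO_tdT and between 693 and 800 in KO_hM4D, and 19 of 20 changes were above 0 in wild types with hM4Di, with a median of 0.17 and 0 called by edgeR. Markers of border and perivascular macrophages (10 genes) summed to between 20.8 and 23.2 CPM in WT_tdT, between 25.1 and 25.9 in WT_hM4D, between 20.5 and 30.0 in KO_tdT and between 24.9 and 31.3 in KO_hM4D, and their median log2 level was highest in KO_tdT 2, at 0.72, and 0.26 in WT_hM4D 3. Of these 10, 9 changes were above 0 in wild types with hM4Di (median 0.33), 9 in KO_tdT against WT_tdT (median 0.35) and 4 in knockouts with hM4Di (median -0.03), with 0 called by edgeR in each. Dendritic cell markers (11 genes) summed to between 14.1 and 18.6 CPM in WT_tdT, between 14.8 and 18.4 in WT_hM4D, between 14.4 and 19.9 in KO_tdT and between 18.3 and 19.6 in KO_hM4D, mostly from Flt3 and Zbtb46, while Xcr1 stood at no more than 0.0453 CPM and Clec9a at no more than 0.0443 CPM in any library. B and plasma cell markers (10 genes) summed to between 23.1 and 38.0 CPM in WT_tdT, between 27.3 and 53.8 in WT_hM4D, between 20.4 and 34.4 in KO_tdT and between 31.8 and 60.4 in KO_hM4D, largely from Ighm. Of these markers, Igkc stood at 0.101, 0.112, 0.0949 and 0.0378 CPM in WT_tdT 1 to 4, 0.631, 4.05, 2.85 and 14.7 CPM in WT_hM4D 1 to 4, 0.0224, 0.04799, 0.0969 and 0.0614 CPM in KO_tdT 1 to 4 and 0.101, 0.144, 17.6 and 20.03 CPM in KO_hM4D 1 to 4. It was highest in KO_hM4D 4, KO_hM4D 3 and WT_hM4D 4, lower in WT_hM4D 2 and 3, and near 0 in all 8 tdTomato libraries. Jchain had 35, 197, 269 and 750 counts in WT_hM4D 1 to 4, 16, 9, 1122 and 1164 in KO_hM4D 1 to 4, and 10 to 28 in the tdTomato libraries. The B cell gene Ms4a1 reached at most 0.0701 CPM in any library. Of the 8 tested genes of this list, 6 changes with hM4Di were above 0 and 2 below in each genotype. edgeR called 0 in each, and DESeq2 called 2 higher in wild types (0.778% of all genes) and 2 in knockouts (0.216%). T and NK cell markers (16 genes) summed to between 42.8 and 62.3 CPM in WT_tdT, between 34.04 and 43.9 in WT_hM4D, between 30.5 and 59.997 in KO_tdT and between 36.1 and 42.9 in KO_hM4D, largely from Cd4. Of these markers, Cd3d reached at most 0.0793 CPM, Cd3e 0.0448 CPM, Cd3g 0.102 CPM and Cd8a 0.0761 CPM in any library. Low as these counts were, 4 of the 16 genes were highest in WT_hM4D 3 (6.82% of all genes tested were), with 14 counts for Cd3d, 18 for Cd3g, 16 for Trbc1 and 28 for Cxcr6, a chemokine receptor of T and NK cells. The rest of the list was highest in other libraries. Of its 5 tested genes, 1 change was above 0 and 4 below in wild types with hM4Di, with a median of -0.27. In knockouts with hM4Di 2 were above 0 and 3 below, with a median of -0.19. Cxcr6 had 19 counts in WT_hM4D 4, 24 in KO_hM4D 3 and 11 in KO_hM4D 4, and 0 to 6 in the remaining libraries. The part of these cells in the class I and class II results was not tested.

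Reactive astrocyte genes (22) summed to between 197 and 215 CPM in WT_tdT, between 391 and 449 in WT_hM4D, between 205 and 234 in KO_tdT and between 242 and 371 in KO_hM4D. edgeR called 5 of them higher in wild types with hM4Di (0.0864% of all genes called), among them Serpina3n (1.51 ± 0.16, adjusted p = 0.000602). In knockouts with hM4Di it called 1 higher (0.0048% of all genes called). Changes above 0 numbered 19 in wild types and 20 in knockouts, against 50.3% and 50.5% of all genes. In each genotype all 4 hM4Di sums lay above all 4 tdTomato sums. In WT_hM4D 1 to 4, with sums of 391, 429, 449 and 425 CPM, the median of the class I molecules stood at -0.03, 0.07, 0.99 and 0.74. Whether astrocyte reactivity had a part in the class I and class II results was not tested.

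**Figure D5:**
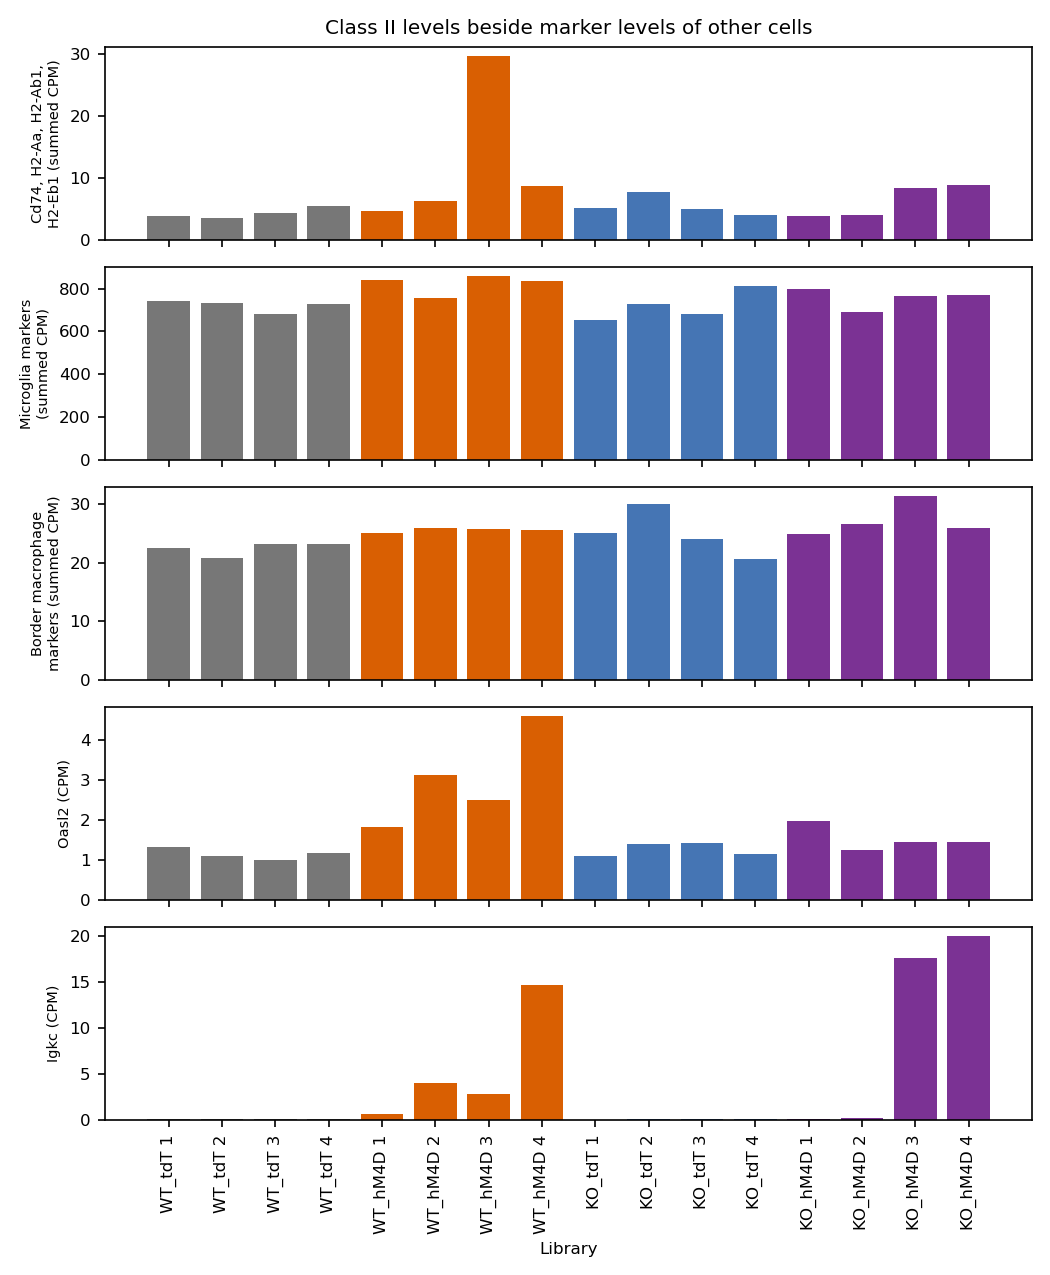
Bars are levels in single libraries, coloured by group, of Cd74 with the 3 classical class II chains, microglia markers and border macrophage markers (summed CPM), the interferon-stimulated gene Oasl2 and the immunoglobulin light chain Igkc (CPM). Class II is highest in WT_hM4D 3 (29.6), Oasl2 in WT_hM4D 4, and Igkc in KO_hM4D 3 and 4 and WT_hM4D 4.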

How the data were processed

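A single table of counts was deposited by the authors: unnormalized whole-number reads for 48795 genes in 16 libraries, with 0 entries that name no gene. Demultiplexing used bcl2fastq 2.17, alignment STAR and counting HTSeq, on GRCm38 (mm10), per the submitters' processing notes. Libraries were stranded and depleted of ribosomal RNA, per the labels' protocols. Strand setting, annotation release and other versions were not given in the sources used here, so overlapping genes and near-identical copies are uncertain. Groups come from title and genotype, with replicate numbers as labelled, and each library was taken as 1 mouse.

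The deposited counts were filtered with filterByExpr by group (20825 genes kept, 27970 removed), scaled with TMM factors and fitted in 1 quasi-likelihood model over all libraries with edgeR 4.0.16 in R 4.3.3 (12 residual degrees of freedom, biological coefficient of variation 0.127). Two-sided F tests covered 7 comparisons, 4 between pairs of groups, their interaction and both averages, and a gene was called at a Benjamini-Hochberg adjusted p under 0.05 over all genes tested. SE is the absolute log2 change over the square root of F. Levels are CPM, and CPM per kb divides by the exon length in GENCODE M21, which also gave coordinates. Each of the 24 within-group pairs of libraries differed beyond sampling noise, with a chi-square between 13 and 142 per degree of freedom. Same-numbered libraries were compared by the correlation, across genes, of their deviations from the group means. It was over 0.1 in 4 of 4 pairs of KO_hM4D against WT_hM4D (0.177 to 0.453), and in 1, 0 and 1 of 4 pairs in the other comparisons. The main fit had no replicate block, so its test of KO_hM4D against WT_hM4D, the interaction and the averages leave this pairing out. The replicate number entered as a block in the alternatives only. The labels do not say what a number shares. The fit was tested on simulated data. Alternatives were DESeq2 1.42.0, RLE factors, no filter, groups compared alone, a replicate block, each library left out, and the 4 libraries with transcripts of both sexes left out.

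The members, gene lists and the rule for named genes were chosen with earlier results of these data known. Given in full are up to 4 members per role with the smallest p in WT_hM4D against WT_tdT or the average of both virus comparisons, plus B2m, H2-K1, H2-D1, Cd74, H2-Aa, H2-Ab1, H2-Eb1, Nlrc5 and Ciita.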

Additional observations from a re-analysis of the deposited data

Results flagged for a closer look

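In 10 of 136 groups of 4 libraries (34 genes in 4 groups) the highest or lowest library stood apart from its group by Dixon's criterion, which flags about 1 in 20 groups by chance. Of these, 6 were high and 4 low, and 3 were class II genes in WT_hM4D 3: H2-Aa at 5.96 CPM (next library 1.59), H2-Ab1 at 4.78 CPM (next 1.45) and H2-Eb1 at 4.40 CPM (next 1.22). The other high libraries were H2-Q4 in WT_tdT 1 at 2.91 CPM, H2-Ab1 in KO_tdT 2 at 1.43 CPM and H2-DMa in KO_tdT 4 at 14.6 CPM. The low libraries were Tap1 in KO_tdT 1 at 1.35 CPM, Psmb10 in KO_tdT 4 at 16.5 CPM, H2-Ob in WT_tdT 3 at 0.369 CPM and Cd40 in WT_hM4D 1 at 0.0912 CPM. No cause was tested.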

How the results depend on the processing

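Counts at an unadjusted p or of signs, the median of Cd74 with the classical class II chains, and the block in a fit to the compared groups alone were added after the data were seen. DESeq2 called 1 member in WT_hM4D against WT_tdT and 4 in the hM4Di average, where edgeR called 0. Without single libraries the average gave 0 to 1 called members (H2-D1 without WT_hM4D 1). Members higher at an unadjusted p under 0.05 ran from 8 to 22 in wild types with hM4Di, 1 to 4 in knockouts (8 with the groups compared alone) and 9 to 23 in the average, which gave 13 without the 4 libraries with transcripts of both sexes. In KO_hM4D against WT_hM4D the class I median ran from -0.20 to -0.0268 and the class II median from -0.58 to -0.11, both smallest in size without WT_hM4D 3, and the median of Cd74 with the classical chains from -1.22 to -0.086. In wild types with hM4Di the latter ran from 0.63 (without WT_hM4D 3) to 1.76. In knockouts with hM4Di the class II median ran from 0.0037 (without KO_hM4D 4) to 0.22. Members lower at an unadjusted p under 0.05 ran from 1 to 13 in KO_hM4D against WT_hM4D (3 with the groups compared alone), 1 to 6 in the interaction (5 without the 4 libraries) and 2 to 9 in the knockout average. Members with a change above 0 ran from 4 to 10, 3 to 13 and 6 to 16 in these comparisons, with the highest counts without WT_hM4D 3. Signs turned for Cd80 in wild types (-0.11 to 0.12 without single libraries), Ciita in the average (-0.069 to 0.56) and Cd40 without the 4 libraries (-0.061 in wild types, -0.18 in the average). Counts in this section are given without the share of all genes in each fit, which can move as well. The causes were not tested.

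Same-numbered libraries deviated together, with a correlation over 0.1, in 4 of 4 pairs of KO_hM4D against WT_hM4D. In WT_hM4D against WT_tdT and in KO_tdT against WT_tdT 1 of 4 pairs did so, and in KO_hM4D against KO_tdT 0 of 4. With the replicate block in the fit to all libraries 0 members were called in each comparison, 16, 2 and 18 members were higher at an unadjusted p under 0.05 in wild types, knockouts and the hM4Di average, and 5, 2 and 5 lower in KO_hM4D against WT_hM4D, the interaction and the knockout average. With the block and the groups compared alone, edgeR called 2 members in KO_hM4D against WT_hM4D (6.12% of all genes). It called 0 in the other comparisons between pairs of groups. In KO_hM4D against WT_hM4D that fit had 13 members lower at an unadjusted p under 0.05. The share of all genes lower was 11% there, in place of 6.66% without the block in the fit to all libraries. In wild types 10 members and in knockouts 9 were higher at an unadjusted p under 0.05. No share of all genes was set beside the other counts of this paragraph, so they do not measure an excess over all genes. The class I median in KO_tdT against WT_tdT, which was near 0, lay below 0 without WT_tdT 4, KO_tdT 2, KO_tdT 4 or the 4 libraries. The other medians of class I and class II followed in the alternatives kept their sign. Counting error weighs most for Ciita, Cd40 and Cd80, with at most 47 counts in any library.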
